A study of Mus musculus with 3 samples.

Results

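A set of 9 genes that couple receptors of natural killer (NK) cells to the inside of the cell was followed through tumor-infiltrating lymphocytes (TILs): Tyrobp, Hcst, Fcer1g, Cd247, Zap70, Syk, Sh2d1a, Sh2d1b1 and Fcgr3. They were chosen by symbol, and each of the 9 has 1 row among the 32285 genes of the count matrices. The study asked how lymphocytes change with time spent in a tumor, using wild-type C57BL/6 mice that carry Kaede, a protein that turns from green to red under violet light. All mice bore subcutaneous MC38-Ova colon tumors grown from 250000 injected cells, all had an isotype control antibody according to the labels, and all tumors were photoconverted on day 13 and taken on day 15. Kaede-red (KR+) cells had therefore been in the tumor for at least the 48 h since conversion, whereas Kaede-green (KG+) cells had arrived within that time, and the data are from 2 KG+ libraries and 1 KR+ library of single cells. The labels call the KG+ libraries biological replicates and give no number of mice for any library. The sort had removed CD11b+ NK1.1- cells, so most myeloid cells and any T cells with CD11b were not sampled, and the KR+ library held 2 B cells.

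Cells were grouped by unique molecular identifiers (UMIs) of genes outside the 9. NK cells had Ncr1 and at most 1 UMI of Cd3e, and they numbered 2579, 2647 and 3168 in KG+ 1, KG+ 2 and KR+, the order of libraries in every list of values below. Within them, Itgam+ cells (Itgam encodes CD11b) numbered 423, 303 and 76 and Itga1+ cells (Itga1 encodes CD49a) 313, 483 and 1525. NK-gate cells with 2 or more UMIs of Rora and none of Eomes, called ILC-like here, numbered 92, 158 and 251. Eomes+ NK cells, the NK-gate cells with Eomes and without any UMI of Rora, numbered 1490, 1458 and 1777. CD8 T cells numbered 2337, 3327 and 4094, of which 492, 1177 and 1956 had Havcr2, the gene of TIM-3. Double-negative (DN) T cells, with Cd3e but without Cd4, Cd8b1 or Ncr1, numbered 1368, 1122 and 1102, and 440, 299 and 371 of them had Trdc, the constant region of the delta chain. Levels are given in CPM, the UMIs of a gene per 1000000 UMIs of the cell group in that library. The ILC markers Il7r, Gata3, Tmem176a, Tmem176b and Cxcr6 summed to 699, 559.6 and 584 CPM in ILC-like cells. In Itga1+ NK cells they summed to 145, 153 and 98.3. The same sum was 546, 597 and 645 in CD8 T cells and 617, 478 and 836 in DN T cells. It thus sets ILC-like cells apart from NK cells but not from T cells. Gata3 alone was at 112, 88.8 and 59.5 in ILC-like cells and 85.2, 88.9 and 76.9 in Itgam+ NK cells. The T cell markers Cd3d, Cd3g, Trac and Trbc2 summed to 415, 451 and 321 in NK cells against 4538, 4909 and 5155 in CD8 T cells.

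The matrices held 87193225, 129438292 and 175848894 UMIs, and 9759, 10786 and 10611 cells were kept. Libraries shared 20, 28 or 36 cell barcodes. Depth followed both color and cell group: the median NK cell held 6092, 8152 and 17241 UMIs, the median Itgam+ NK cell 5341, 6689 and 6701, the median Itga1+ NK cell 9493, 12011 and 24500, and the median CD8 T cell 8942, 10453 and 14091. KG+ 2 had the most myeloid RNA in NK cells and DN T cells, though not in every group: the 8 myeloid markers, all detected, summed to 206, 349 and 191 CPM in NK cells. In DN T cells, where 7 of the 8 were detected, they summed to 216, 641 and 252 CPM. Tyrobp, Fcer1g, Fcgr3 and Syk are also used by myeloid cells.

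As background, most activating receptors of NK cells have no signaling motif of their own and pair in the membrane with a small adaptor. DAP12 (Tyrobp), the Fc receptor gamma chain (Fcer1g) and CD3 zeta (Cd247) carry immunoreceptor tyrosine-based activation motifs (ITAMs), whose paired tyrosines, once phosphorylated by Src-family kinases, bind the tandem SH2 domains of the kinases SYK and ZAP-70. DAP10 (Hcst) instead carries a single YINM-type motif that recruits phosphatidylinositol 3-kinase and GRB2. CD16 (Fcgr3) binds the Fc part of IgG and signals through the gamma chain, and SAP (Sh2d1a) and EAT-2 (Sh2d1b1) are SH2 adaptors of the SLAM family of receptors. T cells use CD3 zeta and ZAP-70 behind the T cell receptor.

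The coding sequences of the motifs show how the 4 adaptors differ, and are taken from the GRCm38 genome and GENCODE M21 gene models. Each is printed 5′ to 3′ on the gene's strand with its tyrosine codons in capitals. The ITAMs are each joined from 2 exons, with 10 codons between the tyrosines except for ITAM 2 of Cd247, which has 11:
Tyrobp ITAM, chr7:30415667-30417385, plus strand: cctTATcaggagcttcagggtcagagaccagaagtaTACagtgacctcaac
Fcer1g ITAM, chr1:171229886-171230075, minus strand: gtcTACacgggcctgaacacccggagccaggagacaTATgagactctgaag
Hcst YINM-type motif, chr7:30417818-30417835, minus strand: gtcTACatcaacatgcct
Cd247 ITAM 1, chr1:165856448-165857457, plus strand: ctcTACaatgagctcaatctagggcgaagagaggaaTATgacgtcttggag
Cd247 ITAM 2, chr1:165858470-165859263, plus strand: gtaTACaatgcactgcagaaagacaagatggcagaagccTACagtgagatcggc
Cd247 ITAM 3, chr1:165859816-165861045, plus strand: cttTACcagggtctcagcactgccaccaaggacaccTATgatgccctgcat

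Tyrobp (ENSMUSG00000030579) spans chr7:30413760-30417585 on the plus strand and Hcst (ENSMUSG00000064109) chr7:30417712-30419854 on the minus strand. The ends of this adaptor pair face each other across 126 bases with no overlap. Of the others, 5 lie on chromosome 1: Fcer1g (ENSMUSG00000058715) at chr1:171229572-171234365, Fcgr3 (ENSMUSG00000059498) at chr1:171051174-171064935, Cd247 (ENSMUSG00000005763) at chr1:165788681-165877277, Zap70 (ENSMUSG00000026117) at chr1:36761798-36782818 and Sh2d1b1 (ENSMUSG00000102418) at chr1:170277320-170286769. Syk (ENSMUSG00000021457) is at chr13:52583173-52648792 and Sh2d1a (ENSMUSG00000005696) at chrX:42502453-42529330. Cd247 overlaps Pou2f1 and Sh2d1a overlaps Tenm1 on the opposite strand, and whether the counting used strand is not given in the sources used here. Sh2d1b1 has a neighbor of like sequence, Sh2d1b2. Of the 470 words of 31 bases in the last 500 bases of its transcript, 30 (6.38%) also occur in Sh2d1b2, so few of them are shared.

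In NK cells the ITAM adaptors Tyrobp and Fcer1g lay far above their level in CD8 T cells. Tyrobp reached 2326, 2111 and 1936 CPM in NK cells against 80.7, 136 and 79.2 in CD8 T cells, and Fcer1g 3082, 2575 and 2315 against 117, 183 and 158. No NK value came near a CD8 T value, in any library. The log2 fold change was 4.54 ± 0.21, adjusted p = 0.000313 for Tyrobp and 4.20 ± 0.21, adjusted p = 0.000341 for Fcer1g (edgeR quasi-likelihood test on UMIs summed per library and cell group, 6 sums, library as a block, ± SE, Benjamini-Hochberg adjustment over 13030 genes). Fcgr3, the receptor that signals through Fcer1g, was at 38.3, 29.5 and 33.2 CPM against 1.75, 2.24 and 1.65 (log2 fold change 4.22 ± 0.17, adjusted p = 0.000243). The EAT-2 gene Sh2d1b1 was at 57.7, 46.0 and 42.4 against 1.75, 2.52 and 2.56 (4.43 ± 0.18, adjusted p = 0.000243), and Syk at 24.9, 24.8 and 8.74 against 1.19, 3.23 and 0.654 (3.65 ± 0.28, adjusted p = 0.000908). In these 3 genes too every NK sum lay above every CD8 T sum.

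The genes that T cells also use were not higher in this way. Zap70 was lower in NK cells, at 71.6, 65.5 and 65.1 CPM against 119, 123 and 136, with a log2 fold change of -0.84 ± 0.07, adjusted p = 0.00133. Cd247 was lower at 75.3, 56.8 and 29.5 against 98.8, 89.4 and 90.1 (-0.82 ± 0.21, adjusted p = 0.0384). The KR+ NK cells had the lowest Cd247 value, and no library's NK cells reached the CD8 T range. Hcst, at 558, 460.3 and 323 CPM in NK cells and 614, 558 and 563 in CD8 T cells, did not pass the test (-0.34 ± 0.12, adjusted p = 0.092), although the values did not overlap, by a narrow margin. Sh2d1a was slightly higher, at 116, 104 and 92.7 against 94.4, 79.9 and 83.4, with overlapping ranges and a log2 fold change of 0.34 ± 0.07, adjusted p = 0.0179. That call was lost when either KG+ library was left out, which also leaves fewer sums: the adjusted p was 0.0901 without KG+ 1 and 0.236 without KG+ 2. In all, 6 of the 9 genes were higher and 2 lower, against 29.1% of all genes called (14.0% higher and 15.1% lower). With thinning before gating 5 were higher and 3 lower, where 1596 of 10821 genes were higher and 1628 lower. Leaving out cells with a UMI of C1qa, Csf1r or markers of B or mast cells gave log2 fold changes of 4.61 for Tyrobp, 4.26 for Fcer1g and 3.76 for Syk, as large as with them. That filter keeps cells with other myeloid markers and does not remove free RNA.

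**Figure D1:**
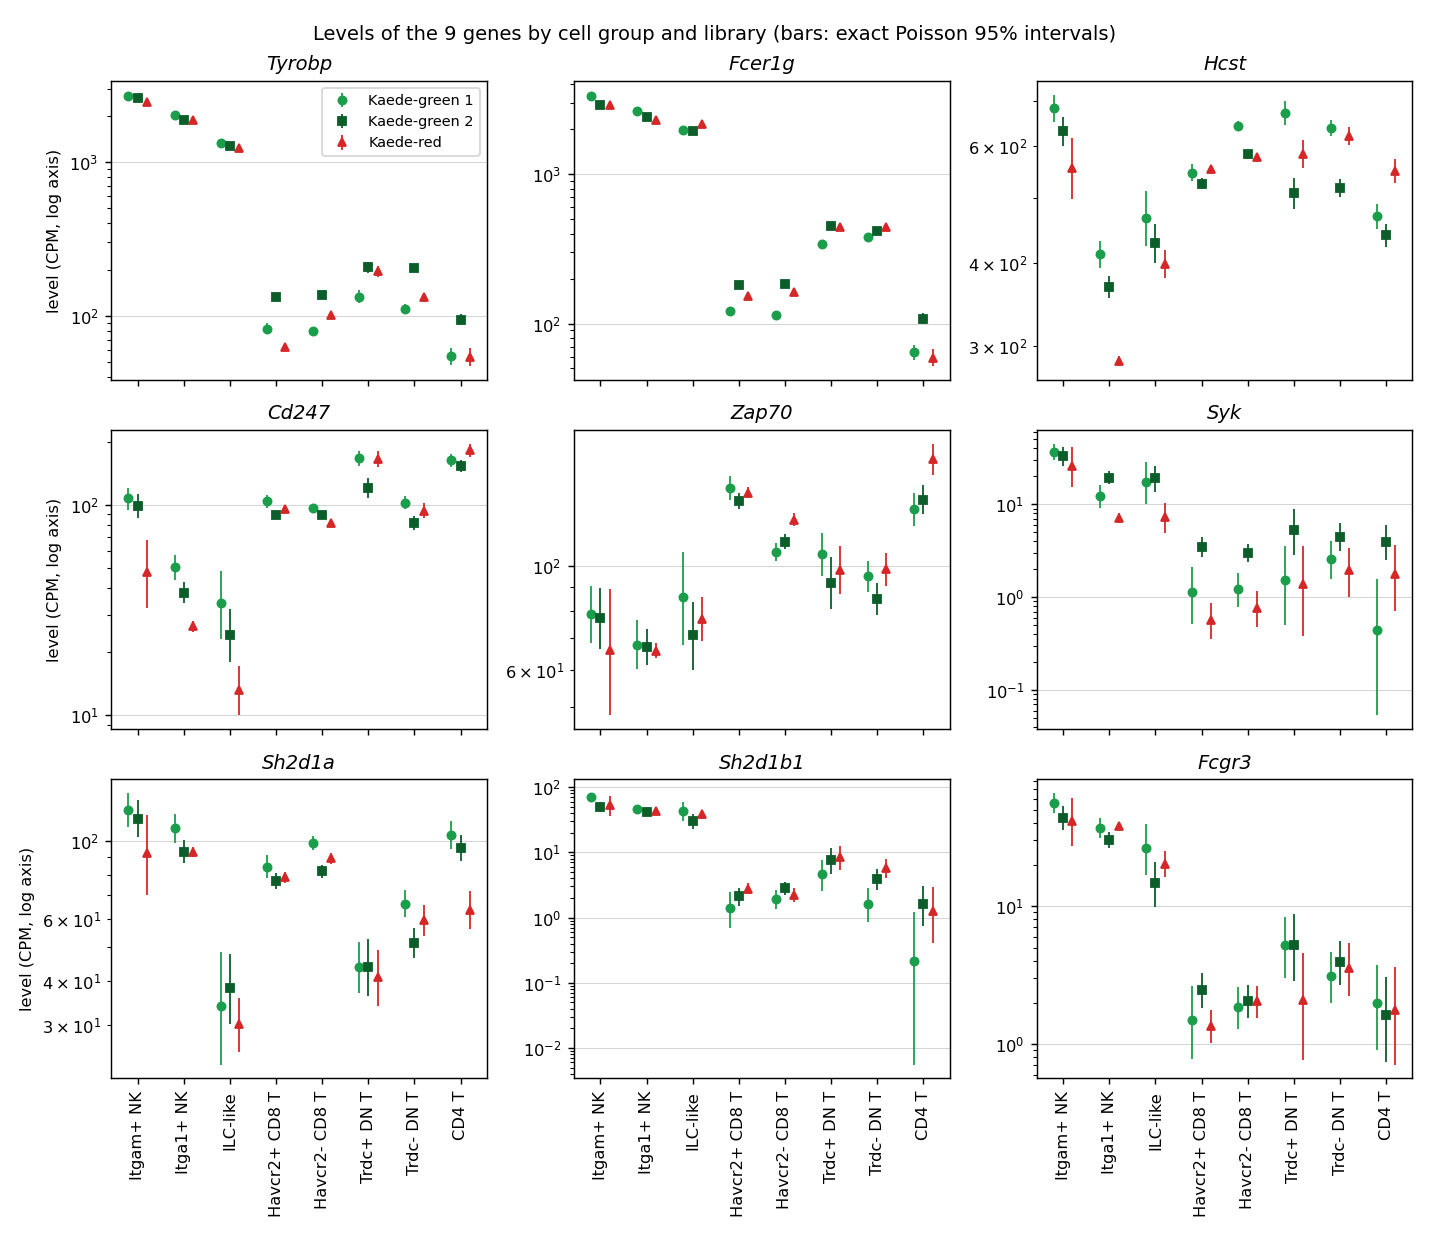
Level of each of the 9 genes, in CPM on log axes (vertical, each gene on its own scale), in 8 cell groups (horizontal axis) and 3 libraries (point colors), with bars for exact 95% Poisson intervals that cover counting error only. Tyrobp in Itga1+ NK cells lay between 1874 and 2019 CPM and in Havcr2- CD8 T cells between 79.8 and 137, whereas the ranges of Hcst overlapped between neighboring groups.

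Set in order of their mean level over 8 groups (ILC-like cells share some cells with both integrin groups), Tyrobp, Fcer1g, Sh2d1b1 and Fcgr3 each ran from Itgam+ NK cells through Itga1+ NK cells to ILC-like cells and then to the T cell groups. Neighboring NK groups had separate ranges in this order, apart from Itga1+ NK and ILC-like cells for Sh2d1b1. Syk also led in Itgam+ NK cells, and its ILC-like and Itga1+ NK ranges overlapped. Cd247 and Zap70 had their highest mean in CD4 T cells, in ranges that overlapped the next group, with 163, 153 and 181 CPM of Cd247 and 132, 139 and 169 of Zap70, and lowest in ILC-like and in Itga1+ NK cells, respectively. The Hcst ranges overlapped between every pair of neighbors in the order. B cells, which use SYK behind their own receptor, held 178 and 214 CPM of Syk in the KG+ libraries, above all NK values.

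The same pattern held for the share of cells with at least 1 UMI after every cell had been thinned to 2000 UMIs, which puts all libraries at the same depth and left out at most 2 shallower cells in a group. Tyrobp was found in 96.5%, 95.3% and 95% of NK cells and Fcer1g in 98.2%, 97.8% and 97.7%, and in CD8 T cells the shares were 7.37%, 13.4% and 7.03% for Tyrobp and 9.25%, 16.6% and 13.0% for Fcer1g. Unthinned, the shares in NK cells were 99.2%, 99.2% and 99.7% for Tyrobp and 99.7%, 99.5% and 99.8% for Fcer1g. B cells, which should lack Fcer1g and Tyrobp transcripts apart from free RNA, gave 9.27% and 24.1% for Tyrobp and 7.28% and 10.1% for Fcer1g in the KG+ libraries, at median depths of 4046 and 4845 UMIs before thinning. CD4 T cells gave 4.34%, 12.1% and 7.59% for Tyrobp and 8.87%, 14.2% and 8.86% for Fcer1g, at median depths of 6248, 7820 and 6616.5 UMIs. Tyrobp in CD8 T cells thus lay below the B cell share in both KG+ libraries, above the CD4 T share in both and just below it in KR+, so the references differ on whether it exceeds background. The B cells themselves held 301 and 1837 CPM of myeloid markers in the KG+ libraries. Syk was found in 5.62%, 5.90% and 2.30% of NK cells (unthinned 16.0%, 20.2% and 14.2%) and 0.0857%, 0.511% and 0.0733% of CD8 T cells. In CD4 T cells, used here as the type that should lack Syk, it was found in 0.189%, 0.949% and 0%, the last being 0 of 474 cells, for which the upper limit is 0.633%. Syk in CD8 T cells was below that share in both KG+ libraries. In KR+ its 0.0733% lay under the upper limit, but 474 cells are too few to place it against the 0% found. Whether it is background was not tested. Zap70 was found in 14.2%, 12.9% and 12.5% of NK cells (unthinned 36.8%, 42.8% and 60.1%) and 21.4%, 22.2% and 23.3% of CD8 T cells.

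**Figure D2:**
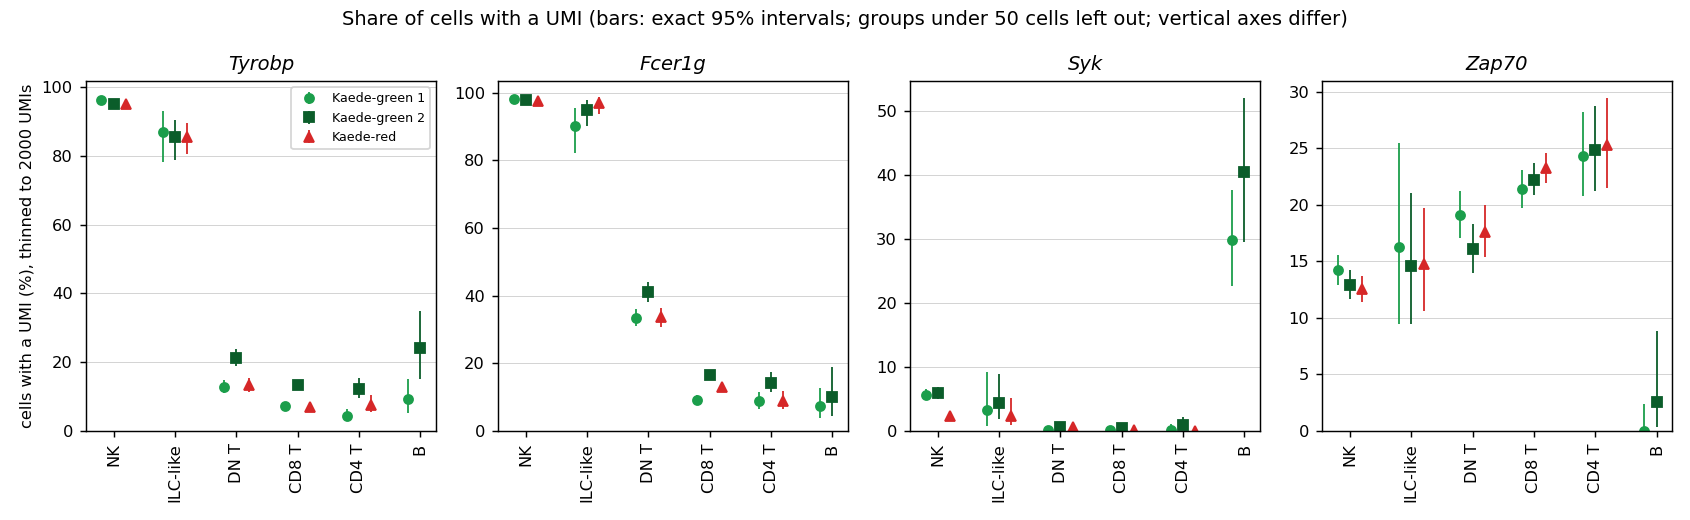
Share of cells with a UMI of Tyrobp, Fcer1g, Syk and Zap70 after thinning to 2000 UMIs per cell (vertical axis, percent), by cell group (horizontal axis) and library (colors), with exact 95% binomial intervals. Tyrobp and Fcer1g were found in nearly all NK cells, Fcer1g in 33.4%, 41.0% and 33.6% of DN T cells, and Tyrobp in 7.37%, 13.4% and 7.03% of CD8 T cells, between the CD4 T and B cell shares in both KG+ libraries. Vertical scales differ between genes, and groups under 50 cells are left out.

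Of the UMIs of the pair of kinases, Syk made up 25.8%, 27.5% and 11.8% in NK cells, with exact 95% binomial intervals of 23.9% to 27.8% and 10.9% to 12.8% in KG+ 1 and KR+. In CD8 T cells it made up 0.994%, 2.55% and 0.480% and in DN T cells 2.25%, 5.11% and 1.78%. Of the UMIs of the SLAM adaptors Sh2d1b1 and Sh2d1a, the first made up 33.2%, 30.6% and 31.4% in NK cells, and 55.7%, 43.9% and 56.0% in ILC-like cells. Fcer1g made up 97.6%, 97.8% and 98.7% of the UMIs of Fcer1g and Cd247, the chains that serve NKp46, in NK cells and 54.2%, 67.2% and 63.7% in CD8 T cells. In CD4 T cells it made up 28.3%, 41.3% and 24.6%. These shares compare cell groups, since capture can differ between genes. How much of the Fcer1g in CD8 T and CD4 T cells is free RNA was not tested. Hcst was the larger part of Hcst plus Tyrobp in CD8 T cells (88.4%, 80.4% and 87.7%) and the smaller in NK cells (19.3%, 17.9% and 14.3%).

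The partners of these genes were read from 7 lists of 72 genes, in the main fit only. Of the receptors that pair with DAP12 or DAP10, 3 of 5 were higher and 0 lower in NK cells than in CD8 T cells, led by the activating Ly49 receptor genes Klra4 (4.84) and Klra8 (4.78) (log2 fold changes in parentheses) and followed by Klrk1 (0.65), which encodes NKG2D. Of the partners of the gamma and zeta chains and other Fc receptors, 3 of 6 were higher and 2 lower: Klrb1a (4.69), Klrb1c (4.56) and Fcgr2b (1.41) were higher, and the T cell receptor chains Cd3g (-5.32) and Cd3d (-4.99) lower. All 7 tested SLAM family genes changed, among them Cd244a (1.84), the 2B4 receptor, upward and Slamf1 (-4.04) and Slamf6 (-1.95) downward. Sh2d1b2, next to Sh2d1b1 on chromosome 1, was higher by 4.67. Among Src and Tec kinases, 4 of 10 were higher and 2 lower. The higher ones included Fgr (2.47), Txk (2.30) and Lyn (2.22), and the lower ones included Lck (-0.64), a kinase that acts early behind the T cell receptor. Downstream, 9 of 25 were higher and 8 lower. Plcg2 (2.78), Vav3 (1.60) and Lat2 (1.46) were higher and Themis (-5.68), Sit1 (-4.97) and Plcg1 (-4.13) lower, and the phospholipase C gamma genes thus differed in opposite directions. Of the negative regulators, 3 of 15 were higher and 5 lower, with Inpp5d (0.83) the highest and Ubash3a (-2.66) the lowest. The list medians were 0.65 for DAP12 or DAP10 partners and -0.09 for negative regulators, against 0.02 for all genes.

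As an average over their gate, DN T cells held an intermediate level of gamma chain RNA. The gate can also hold CD4 or CD8 T cells whose Cd4 or Cd8b1 was not captured, and their share was not tested. In Trdc- DN T cells Trac was at 717, 669 and 813 CPM and Cd8a at 62.0, 85.2 and 76.6. In CD8 T cells they were at 727, 702 and 734 and at 630, 707 and 860. Fcer1g was at 369, 423 and 445 CPM in DN T cells, above the 117, 183 and 158 of CD8 T cells in every library and below every NK value. The log2 fold change was 1.42 ± 0.09, adjusted p = 0.000159 against CD8 T cells and -2.76 ± 0.15, adjusted p = 0.000277 against NK cells. After thinning, Fcer1g was found in 33.4%, 41.0% and 33.6% of DN T cells (unthinned 50.6%, 67.6% and 51.9%), with 95% intervals of 30.9% to 36.0%, 38.1% to 44.0% and 30.8% to 36.5%. Those intervals lay above the shares of 8.87%, 14.2% and 8.86% in CD4 T cells and of 7.28% and 10.1% in B cells. Tyrobp, at 118, 206 and 152 CPM, was also called higher than in CD8 T cells (0.66 ± 0.08, adjusted p = 0.00129), and its thinned share of 12.8%, 21.2% and 13.3% stood above the 4.34%, 12.1% and 7.59% of CD4 T cells and beside 9.27% and 24.1% of B cells in the KG+ libraries. Its log2 fold change ran from 0.22 to 1.45 over the alternatives, the lowest with no cell filter, and the call was lost with no library block (adjusted p = 0.109). Among DN T cells with a UMI, 64, 92 and 59 had Tyrobp alone, 111, 146 and 88 had both genes and 346, 314 and 282 had Fcer1g alone. Fcer1g accordingly made up 75.7%, 67.3% and 74.5% of the UMIs of the 2 adaptors in DN T cells, against 59.2%, 57.5% and 66.6% in CD8 T cells, 57.0%, 54.9% and 54.5% in NK cells and 54.1%, 53.3% and 52.2% in CD4 T cells.

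KG+ 2, the library with the most myeloid RNA in DN T cells, had the highest Tyrobp there and the lowest of the 3 shares of Fcer1g among the UMIs of both. The DN T and CD8 T comparison gave a log2 fold change of 1.44 for Fcer1g without cells with a UMI of C1qa, Csf1r or markers of B or mast cells. Without KG+ 2 it gave 1.52. That filter keeps cells with other myeloid markers and does not remove free RNA. Whether myeloid RNA adds to the Fcer1g difference was not tested. Fcgr3 (0.95 ± 0.19, adjusted p = 0.00909) and Sh2d1b1 (0.96 ± 0.20, adjusted p = 0.0111) were called higher from low levels, at 3.76, 4.29 and 3.12 and 2.54, 4.87 and 6.56 CPM. With no cell filter both calls were lost (adjusted p = 0.0731 and 0.0748), and that of Sh2d1b1 also with doublets kept (0.069) and with no library block (0.0792). Syk, at 2.26, 4.67 and 1.78 CPM in DN T cells, was called at an adjusted p of 0.0348 and lost the call under 10 of 12 alternative settings, among them leaving out any 1 library (adjusted p = 0.0996 without KG+ 1, 0.0627 without KG+ 2 and 0.0671 without KR+). Zap70 was lower in DN T than in CD8 T cells, at 98.3, 86.8 and 98.2 CPM (-0.45 ± 0.07, adjusted p = 0.00403), and so was Sh2d1a, at 59.5, 49.4 and 53.6 (-0.70 ± 0.06, adjusted p = 0.000483). Cd247 at 122, 91.9 and 116 (0.20 ± 0.08, adjusted p = 0.0699) and Hcst at 648, 516 and 609 (-0.01 ± 0.06, adjusted p = 0.927) did not pass the test. In all 5 genes were called higher and 2 lower, where 37.4% of 12251 genes were called (18.2% higher and 19.2% lower).

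Against NK cells, DN T cells were lower in 6 of the 9 genes and higher in 2, where 22.2% of 11932 genes were called (12.1% higher and 10.1% lower), and the comparison shares its DN T and NK sums with those above. The largest differences were in Tyrobp (-3.86 ± 0.21, adjusted p = 0.000277), Sh2d1b1 (-3.49 ± 0.28, adjusted p = 0.000745) and Fcgr3 (-3.24 ± 0.18, adjusted p = 0.000277), followed by Syk (-2.79 ± 0.23, adjusted p = 0.000792) and Sh2d1a (-1.03 ± 0.09, adjusted p = 0.000989). Cd247 was higher in DN T cells (1.04 ± 0.23, adjusted p = 0.0237), and so was Zap70 (0.40 ± 0.09, adjusted p = 0.0239). The Zap70 call was lost without either KG+ library, with adjusted p = 0.23 without KG+ 1 and 0.175 without KG+ 2. Hcst did not pass the test (0.35 ± 0.14, adjusted p = 0.137). Of the partner receptors of DAP12 or DAP10, all 5 were lower in DN T than in NK cells, from Klra8 (-4.84) and Klra4 (-4.80) to Klrc2 (-0.52). Against CD8 T cells, the gamma-chain partner NK1.1, the product of Klrb1c, was higher (1.81), as were the kinases Lyn (1.07) and Txk (1.00) and the adaptor Trat1 (2.53), and the lowest were Themis (-1.89) and Ubash3a (-1.19).

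Within DN T cells, those with Trdc had more Cd247: 166, 120.2 and 165 CPM against 102, 82.2 and 93.8 in DN T cells without Trdc, a log2 fold change of 0.69 ± 0.08, adjusted p = 0.00031. Every Trdc+ value was above every Trdc- value. Sh2d1a was lower, at 43.9, 43.9 and 41.0 against 66.4, 51.3 and 59.5 (-0.46 ± 0.10, adjusted p = 0.0146), again without overlap. The Sh2d1a call was lost without KG+ 1 (adjusted p = 0.135). The other 7 genes did not pass the test, and Fcer1g was at 339, 447 and 446 against 382, 414 and 444, a log2 fold change of -0.02 ± 0.07, adjusted p = 0.901. The 2 calls compare with 9.86% of 10200 genes called (5.5% higher and 4.36% lower). Of the lists, 2 of 5 DAP12 or DAP10 partners were higher in Trdc+ cells, Klra4 (1.83) and Klra8 (1.27), and none lower. Trat1 (-1.67), Lck (-0.53) and 4 of 15 negative regulators were lower.

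Among CD8 T cells, 3 of the 9 genes were called with Havcr2. Zap70 was at 147, 138 and 143 CPM in Havcr2+ cells and 107, 113 and 126 in Havcr2- cells, a log2 fold change of 0.26 ± 0.06, adjusted p = 0.0132. The ranges did not overlap, but the smallest gap was in KR+. Sh2d1a (-0.21 ± 0.06, adjusted p = 0.0262) and Hcst (-0.20 ± 0.06, adjusted p = 0.0344) were slightly lower. The 3 calls compare with 28.5% of 12263 genes called (14.0% higher and 14.5% lower), and all 3 were lost without KG+ 2, with adjusted p = 0.0701 for Zap70, 0.13 for Sh2d1a and 0.224 for Hcst. Sh2d1a (0.0557) and Hcst (0.0853) were lost without KG+ 1 as well. The median Havcr2+ cell held 13155, 12953 and 17556.5 UMIs and the median Havcr2- cell 8439, 9383.5 and 11185. With each cell thinned to 4000 UMIs before gating, Zap70 kept its call (0.26, adjusted p = 0.0319), Sh2d1a did not (-0.26, adjusted p = 0.0938), and Hcst came to 0.0074 (adjusted p = 0.972). Of the SLAM receptors that bind SAP, Cd244a (1.27) was higher in Havcr2+ cells, and Slamf6 (-1.78) and Ly9 (-0.91) lower. Lat2 (1.15) and Ubash3b (0.79) were also higher, and Yes1 (-1.86) and Trat1 (-1.24) lower.

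NK cells with CD49a had lower CPM of most of the 9 genes than NK cells with CD11b, the integrins by which the study placed NK cells on a course from entry to residence. Cd247 was at 50.5, 38.3 and 26.4 CPM in Itga1+ cells against 107, 98.7 and 47.7 in Itgam+ cells (log2 fold change -1.08 ± 0.12, adjusted p = 2.92e-05). It was lower in each library, although KG+ 1 Itga1+ cells overlapped the KR+ Itgam+ value. Syk was at 12.4, 19.5 and 7.09 against 36.8, 32.9 and 26.2 (-1.19 ± 0.22, adjusted p = 0.00121) and Hcst at 412, 368 and 285 against 684, 631 and 555 (-0.75 ± 0.08, adjusted p = 2.84e-05), both without overlap. Tyrobp was at 2019, 1877 and 1874 against 2679.8, 2601 and 2469 (-0.35 ± 0.07, adjusted p = 0.00252) and Fcer1g at 2658, 2398 and 2288 against 3333, 2903 and 2897 (-0.24 ± 0.07, adjusted p = 0.0228). The Fcer1g call was lost in 6 of the 12 alternative settings, over which its log2 fold change ran from -0.32 to -0.072. That of Tyrobp was lost in 2. Tyrobp and Fcer1g differed by less than Cd247, Syk and Hcst, a comparison between genes that was not itself tested. Fcgr3 (-0.39 ± 0.12, adjusted p = 0.0245) and Sh2d1b1 (-0.33 ± 0.12, adjusted p = 0.0461) were lower too, but Sh2d1b1 changed sign with cells thinned before gating (0.19) and with stricter gates (0.28), and the Sh2d1b1 call was lost in 7 and the Fcgr3 call in 8 of the 12 alternatives. Sh2d1a (-0.10 ± 0.10, adjusted p = 0.455) and Zap70 (-0.09 ± 0.10, adjusted p = 0.564) did not pass the test, so 7 of 9 were lower and none higher, where 17.3% of 9466 genes were called lower, 18.6% higher and 35.8% in all.

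A CPM divides by all UMIs of a group, and the Itga1+ cells held far more. Counted per cell, Cd247 stood at 0.652, 0.590 and 0.671 UMIs per Itga1+ cell and 0.655, 0.762 and 0.408 per Itgam+ cell, and Tyrobp at 26.0, 28.9 and 47.6 against 16.4, 20.1 and 21.1. Per cell, Tyrobp was higher in Itga1+ cells in every library, and Cd247 was about level in KG+ 1, lower in KG+ 2 and higher in KR+. Syk was at 0.160, 0.30 and 0.180 UMIs per Itga1+ cell and 0.225, 0.254 and 0.224 per Itgam+ cell. A deeper cell also passes a gate of 1 UMI more easily. When each cell was thinned to 4000 UMIs before gating, 427 of 5887 genes tested were called. Itgam+ cells then numbered 210, 141 and 37 and Itga1+ cells 123, 191 and 385. Of the 9 genes 1 kept its call, Tyrobp (-0.25, adjusted p = 0.0334), and Cd247 was at -0.56 (adjusted p = 0.117), Hcst at -0.35 (0.055) and Syk at -1.02 (0.0679). The number of the 9 genes called also fell to 4 without KG+ 1 and to 3 without KG+ 2, the 3 being Cd247, Hcst and Syk. Among all genes, 2471 of 10132 were called without KG+ 1 and 1621 of 9528 without KG+ 2, against 3393 of 9466 in the main fit. The 8 myeloid markers summed to 428, 407 and 193 CPM in Itga1+ and 158, 599 and 323 in Itgam+ cells, with 7 of 8 detected. Leaving out cells with a UMI of C1qa, Csf1r or markers of B or mast cells kept 6 of the 7 calls, at -1.10 for Cd247 and -0.36 for Tyrobp, and lost that of Fcgr3 (-0.34, adjusted p = 0.0644).

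In the lists too, most called genes were lower with CD49a in the main fit. The list calls were not repeated under the alternatives. With thinning before gating, 427 of 5887 genes were called, against 3393 of 9466 in the main fit. Of the DAP12 or DAP10 partners 1 of 5 were higher and 4 lower, from Klra4 (-1.17) and Klra8 (-1.15) to Klrd1 (0.30), the CD94 gene and the one that was higher. Of the gamma and zeta chain partners and other Fc receptors, a list that includes Cd3d and Cd3g, 0 of 6 were higher and 4 lower, including Klrb1c (-0.93). Of Src and Tec kinases 0 of 9 were higher and 5 lower, with Yes1 (-2.40) and Fyn (-1.04) the lowest. Of downstream genes 1 of 20 were higher and 10 lower, and of negative regulators 1 of 15 were higher and 8 lower, Ptpn6 (0.62), the phosphatase SHP-1, being the higher one. Sh2d1b2, the neighbor of Sh2d1b1, was higher (1.07). The list medians ran from -0.77 for DAP12 or DAP10 partners to -0.28 for downstream genes, leaving out the single-gene list, against -0.01 for all genes.

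**Figure D3:**
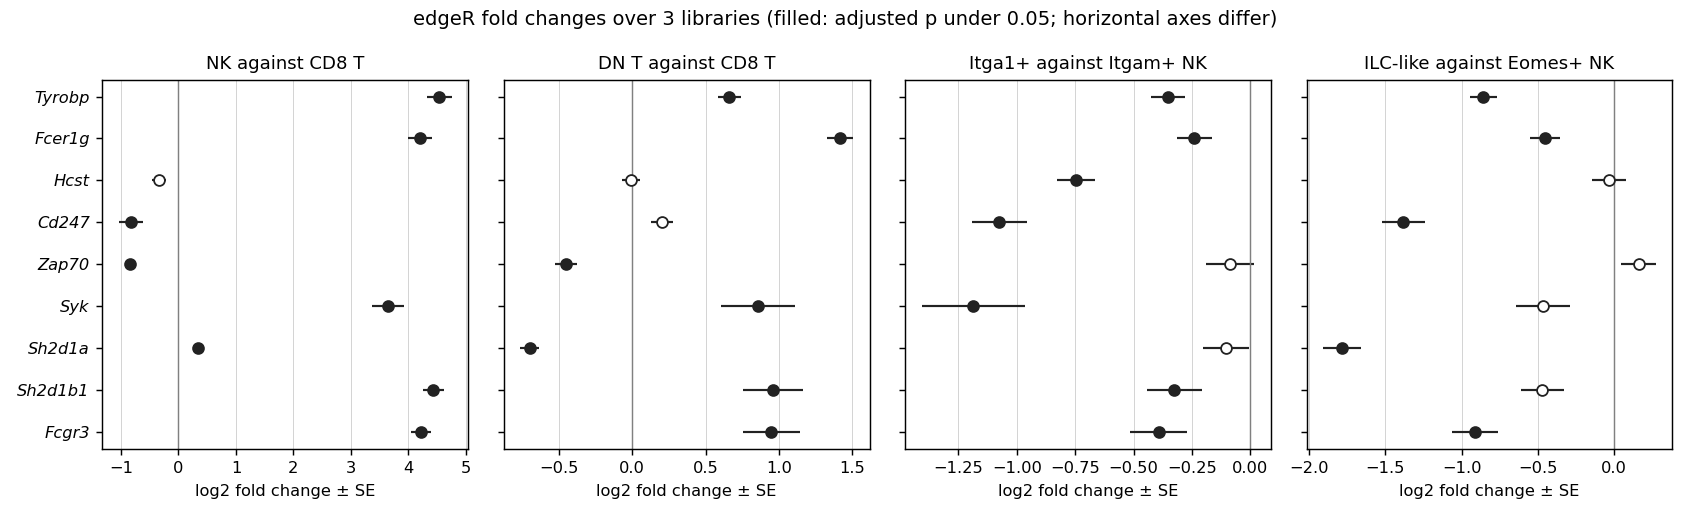
Log2 fold change of each of the 9 genes (horizontal axis, with SE bars) in 4 comparisons of cell groups, filled where the edgeR adjusted p was under 0.05. Tyrobp, Fcer1g, Sh2d1b1, Fcgr3 and Syk lay between 3.65 and 4.54 for NK against CD8 T cells, and 7 genes lay below 0 and were called for Itga1+ against Itgam+ NK cells.

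ILC-like cells differed from Eomes+ NK cells most in Sh2d1a among the 9 genes. The SAP gene was at 34.0, 38.3 and 30.1 CPM in ILC-like cells and 119.9, 114 and 101 in Eomes+ NK cells, with a log2 fold change of -1.78 ± 0.12, adjusted p = 9.09e-08, and no values overlapped. Sh2d1b1 was at 42.8, 29.9 and 38.3 against 58.3, 48.3 and 42.0 and did not pass the test (-0.47 ± 0.14, adjusted p = 0.0623). After thinning, Sh2d1a was found in 8.70%, 5.06% and 5.58% of ILC-like and 23.0%, 19.1% and 20.7% of Eomes+ NK cells (unthinned 21.7%, 24.1% and 26.7% and 52.4%, 60.1% and 74.5%). Cd247 was at 34.0, 24.0 and 13.2 CPM against 82.6, 63.4 and 31.2 (-1.38 ± 0.14, adjusted p = 8.21e-06), lower within each library, although KG+ 1 ILC-like cells overlapped the KR+ Eomes+ value. Tyrobp, at 1336, 1271 and 1231 against 2406, 2201 and 2032 (-0.86 ± 0.09, adjusted p = 7.63e-06), was lower in ILC-like cells without overlap, and so was Fcer1g, at 1978, 1941 and 2160.1 against 3117, 2589 and 2299 (-0.46 ± 0.10, adjusted p = 0.00767). Fcgr3 was at 26.3, 14.7 and 20.2 against 40.6, 29.9 and 35.3 (-0.91 ± 0.15, adjusted p = 0.000973).

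In all 5 of the 9 genes were lower in ILC-like cells and none higher, where 5.89% of 10671 genes were called (3.17% higher and 2.73% lower). Some calls were lost with a library left out, which also leaves fewer sums. Without KG+ 2, Fcgr3 (adjusted p = 0.0526) and Fcer1g (0.278) were lost, where 314 of all genes were called against 629. Without KG+ 1, Fcer1g (0.267) was lost, where 610 were called. Both calls were also lost with no library block, and that of Fcgr3 with cells thinned before gating. Syk at 17.6, 19.1 and 7.29 CPM (-0.47 ± 0.18, adjusted p = 0.177), Zap70 at 85.6, 71.1 and 77.2 (0.16 ± 0.11, adjusted p = 0.601) and Hcst at 467, 428 and 399 (-0.03 ± 0.11, adjusted p = 0.966) did not pass the test. The activating Ly49 receptors that pair with DAP12 were lower by more than Tyrobp, as values that were not tested against each other: Klra4 (-5.16) and Klra8 (-4.15). Klrb1c (-0.91), the NK1.1 gene, and Sh2d1b2 (-1.54) were lower as well. None of the 7 tested SLAM family genes, the partners of SAP and their ligand, passed the test in either direction. Trat1 (4.68) and Pag1 (0.79) were higher. NK markers summed to 1484, 1555 and 1772 CPM in ILC-like cells and 3340, 2877 and 3067 in Eomes+ NK cells. Eomes is among these markers and is set by both gates. In all NK cells, ILC-like cells included, the NK markers summed to 3129, 2651 and 2848. T cell markers summed to 569, 546 and 487 in ILC-like, 382, 404 and 286 in Eomes+ and 415, 451 and 321 in all NK cells.

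Between colors there was 1 KR+ library, so no test was possible and ratios of CPM are given. A gene is called where KR+ differed from both KG+ libraries in the same direction, by at least 0.5 on the log2 scale and by more than the KG+ libraries differed from each other. In NK cells, 3 of the 9 genes passed this rule, all lower in KR+, where 26.1% of 13355 genes passed (19.2% lower and 6.9% higher). Syk was lower, from 24.9 (exact 95% Poisson interval 22.8 to 27.2) and 24.8 (22.9 to 26.7) CPM in KG+ to 8.74 (8.02 to 9.51) in KR+, log2 ratios of -1.51 and -1.50 to the KG+ libraries. The KG+ libraries differed by 0.01. Cd247 went from 75.3 and 56.8 to 29.5 CPM (-1.35 and -0.94) and Hcst from 558 and 460.3 to 323 (-0.79 and -0.51). Zap70, the other kinase, stood at 71.6, 65.5 and 65.1 CPM, with ratios of -0.14 and -0.01, and Syk made up 25.8%, 27.5% and 11.8% of the UMIs of the 2 kinases. Tyrobp (-0.27 and -0.13), Fcer1g (-0.41 and -0.15) and Fcgr3 (-0.21 and 0.17) did not pass the rule.

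KR+ NK cells held more UMIs, and per cell the 3 genes were not lower together. Cd247 stood at 0.574, 0.594 and 0.579 UMIs per NK cell in KG+ 1, KG+ 2 and KR+, Syk at 0.190, 0.259 and 0.172 and Hcst at 4.25, 4.82 and 6.35. Cd247 per cell was thus level across colors, Hcst was higher in KR+, and Syk was lower than in KG+ 2 with a smaller gap to KG+ 1. Tyrobp went from 17.7 and 22.1 to 38.0 and Zap70 from 0.546 and 0.685 to 1.28 UMIs per cell. The KR+ library was not deeper in every cell group: the median DN T cell held 6739, 7733.5 and 6576.5 UMIs and the median CD4 T cell 6248, 7820 and 6616.5. At the same depth of 2000 UMIs, Syk was found in 5.62%, 5.90% and 2.30%, Cd247 in 15.7%, 11.6% and 6.94% and Hcst in 67.7%, 61.7% and 50.6% of NK cells, and Zap70 in 14.2%, 12.9% and 12.5% (unthinned 38.9%, 39.5% and 38.6% for Cd247 and 94.2%, 95.2% and 98.2% for Hcst). Scaling by TMM, which moved the median log2 ratio of all genes in NK cells from -0.17 and -0.16 to 0.06 and 0.07, left Syk (-1.28 and -1.27) and Cd247 (-1.13 and -0.71) past the rule but not Hcst (-0.56 and -0.28). With it the genes past the rule went from 921 higher and 2563 lower in KR+ to 1950 and 1416, 25.2% of all.

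Within the NK groups, Cd247 was lower in KR+ in Itgam+ cells (-1.15 and -1.03), in Itga1+ cells (-0.94 and -0.54) and in ILC-like cells (-1.38 and -0.87). Syk was lower in Itga1+ cells (-0.82 and -1.46) and ILC-like cells (-1.29 and -1.39). In Itgam+ cells, Syk at 36.8, 32.9 and 26.2 CPM (-0.46 and -0.30) did not pass, on 423, 303 and 76 cells, and Hcst passed in none of these 3 groups. The share of all genes past the rule was 22.1% in Itgam+ (15.0% lower), 14.6% in Itga1+ (11.5% lower) and 10.3% in ILC-like cells (6.9% lower). In Itga1+ cells the Cd247 ratios under TMM were -0.79 and -0.39, which do not pass, and with cells thinned before gating the Syk ratios were -0.12 and -0.44 in Itga1+ and 0.01 and -0.28 in ILC-like cells, which do not pass either. In CD8 T cells (14.5% of genes past the rule) and DN T cells (6.88%), none of the 9 genes passed. Cd247 stood at 98.8, 89.4 and 90.1 CPM in CD8 T cells, with ratios of -0.13 and 0.01, and Zap70 at 119, 123 and 136 (0.19 and 0.14). In CD4 T cells (11.5%, 5.39% lower), Sh2d1a was lower in KR+ (-0.71 and -0.58).

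**Figure D4:**
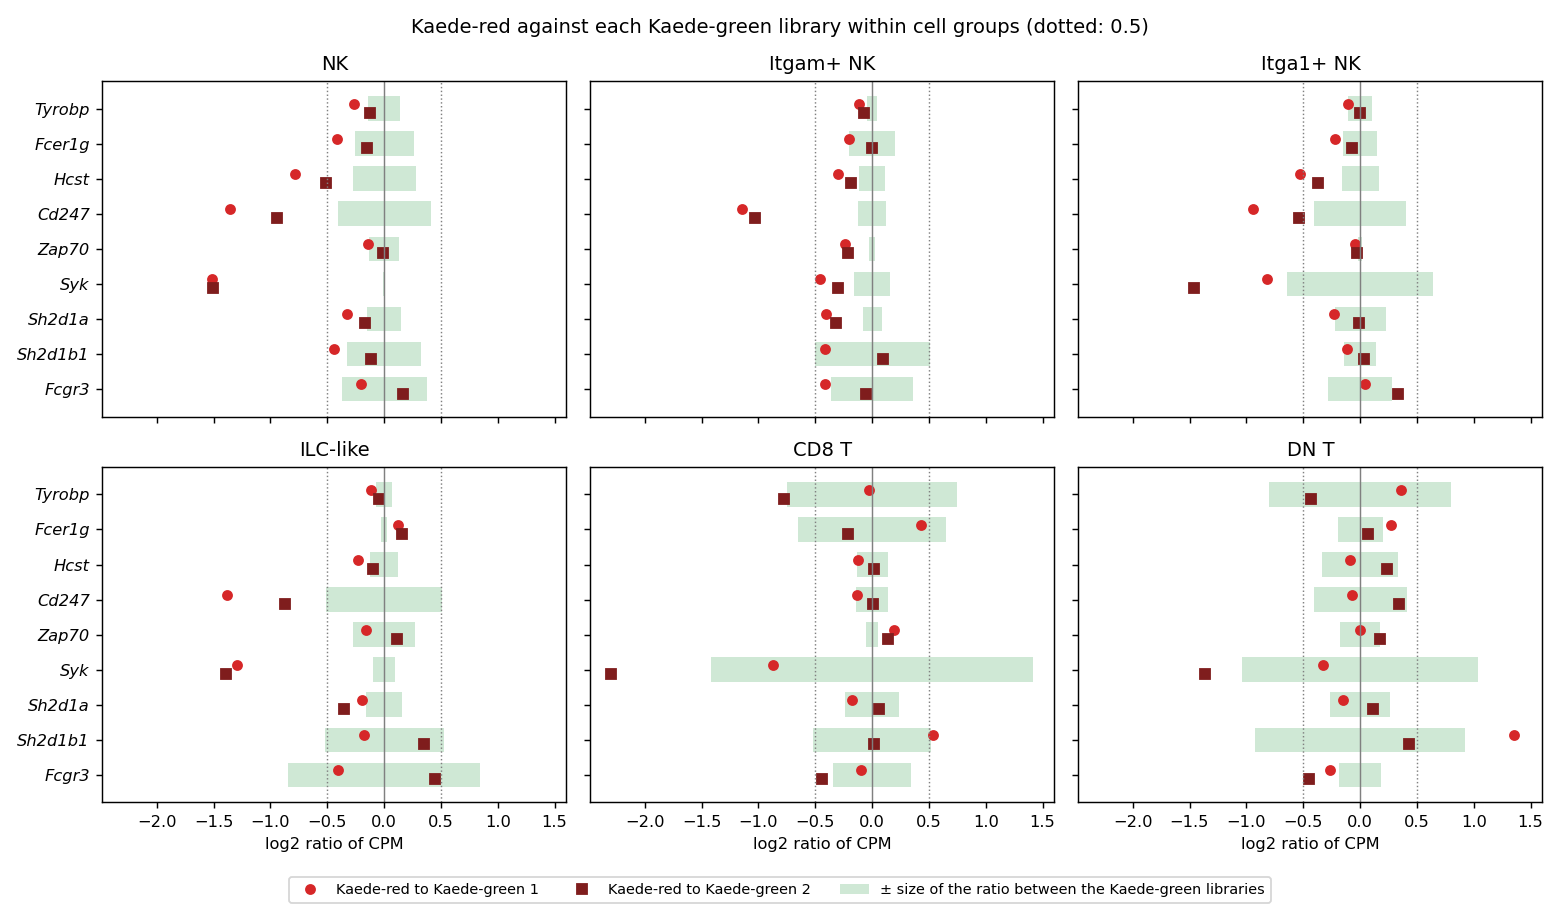
Log2 ratio of KR+ to KG+ 1 and to KG+ 2 (horizontal axis) for each of the 9 genes in 6 cell groups, with the size of the difference between the KG+ libraries drawn as a bar around 0. Syk (-1.51 and -1.50) and Cd247 (-1.35 and -0.94) lay below that bar in NK cells, and no gene passed the rule in CD8 T or DN T cells.

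**Figure D5:**
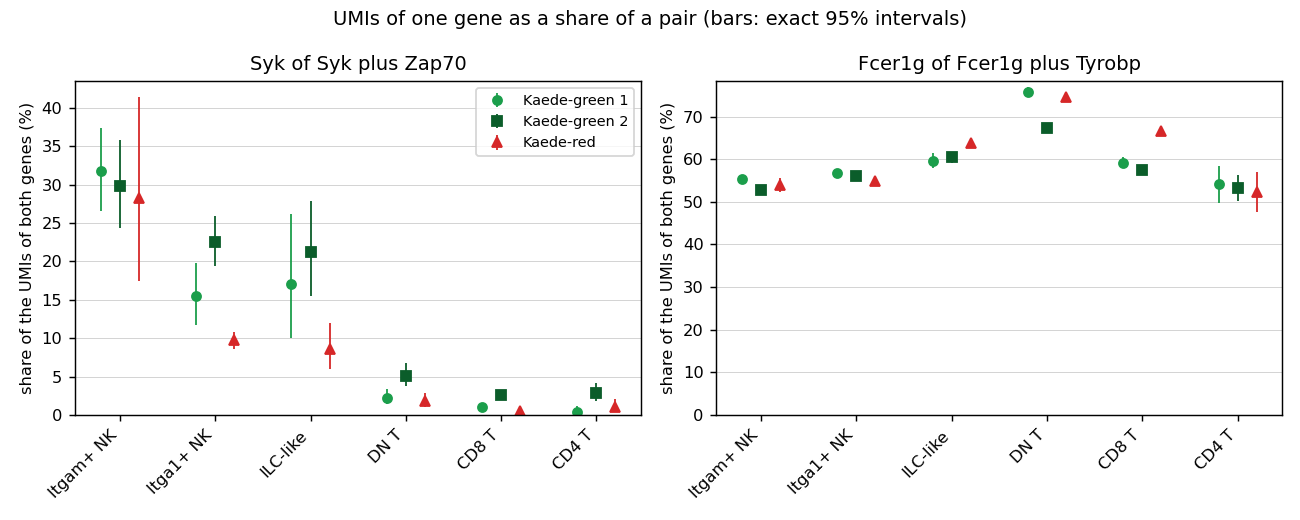
Share of Syk among the UMIs of Syk and Zap70, and of Fcer1g among those of Fcer1g and Tyrobp (vertical axes, percent), by cell group and library, with exact 95% binomial intervals. The Syk share was 31.8%, 29.8% and 28.3% in Itgam+ NK cells, 15.4%, 22.5% and 9.71% in Itga1+ NK cells and 0.994%, 2.55% and 0.480% in CD8 T cells. The Fcer1g share was 75.7%, 67.3% and 74.5% in DN T cells.

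Over 27 sums, of 9 cell groups in 3 libraries, the genes whose log2 CPM ran most like each of the 9 were named by Pearson's r among 6917 other genes. The points share libraries and depth, and ILC-like cells also belong to an integrin group, so r is a description. For Tyrobp they were Tnfsf12 (r = 0.99), Fcer1g (r = 0.98) and Fcgr3 (r = 0.98), for Fcer1g Klrb1a (r = 0.98), Tyrobp (r = 0.98) and Klrb1c (r = 0.98), for Fcgr3 Tyrobp (r = 0.98), Fcer1g (r = 0.98) and Klrb1c (r = 0.97) and for Sh2d1b1 Tyrobp (r = 0.98), Fcer1g (r = 0.98) and Tnfsf12 (r = 0.97). Tyrobp was thus among the 3 closest of each of Fcer1g, Fcgr3 and Sh2d1b1. For Syk they were Cd9 (r = 0.96), Lyn (r = 0.95) and Dhrs3 (r = 0.95), of which Lyn is a Src-family kinase. For Cd247 they were Rasgrp1 (r = 0.94), Ppm1h (r = 0.86) and Selenow (r = 0.86), for Zap70 Uhrf2 (r = 0.93), Gmfg (r = 0.93) and Fam20a (r = 0.92), for Hcst Tacc1 (r = 0.90), Zdhhc18 (r = 0.90) and Prkca (r = 0.89) and for Sh2d1a Prr5l (r = 0.83), Nemp2 (r = 0.81) and Ncald (r = 0.80). Between the 9, Zap70 ran against Tyrobp (r = -0.89) and against Syk (r = -0.81), and Hcst ran with Cd247 (r = 0.81).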

How the data were processed

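Single cells were profiled with the 10x 3′ v3 kit in 2 KG+ libraries and 1 KR+ library. The authors made the deposited UMI counts with Cell Ranger, given as version 6.1.2 in the submitters' processing notes, on mm10. From the counts, cells with 1000 to 6000 genes and at most 7.5% mitochondrial UMIs were kept. A simulation-based doublet score removed 241, 292 and 254 cells. The rest were gated on raw UMIs of 11 genes, none of them among the 9. Among the reference groups, CD4 T cells had Cd3e and Cd4 without Cd8a, Cd8b1 or Ncr1. B cells were gated on Cd79a and Ms4a1 as well, and myeloid cells on Csf1r and Lyz2, both without Cd3e or Ncr1. UMIs were summed per library and cell group and tested with edgeR 4.0.16 (TMM, filterByExpr, quasi-likelihood, library as a block, the 11 gate genes left out, adjusted p under 0.05). The sums of 1 library are paired by construction. With library as a block, the p-values measure how the difference between 2 cell groups varies over these 3 libraries. The study split sorted TILs by color, and the labels do not say whether KR+ cells share mice with a KG+ library. The 3 libraries can therefore not be taken as 3 independent sets of mice. The p-values do not measure the spread of levels between libraries, of which 2 are KG+ and 1 is KR+. Intervals are exact and cover counting error only. Color ratios, with 0.5 added to each count, were given to genes with at least 20 UMIs over the 3 sums. Alternatives were the RLE normalization, no low-count filter, DESeq2 1.42.0, no block, doublets kept, no cell filter, thinning before gating, stricter gates, no cells with other-lineage UMIs and each library left out. The edgeR step was tested on simulated data. The genes and lists were chosen with earlier results of these data known. All 9 genes are named throughout, and of each list at most 3 called genes each way, by size of change. Some genes of the lists are counted but not reported here by name.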

Additional observations from a re-analysis of the deposited data

Results flagged for a closer look

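The colors differed in opposite directions between NK cells and CD4 T cells for 2 of the 9 genes, in each case by more than the KG+ libraries differed from each other, but in CD4 T cells neither gene reached the 0.5 of the rule (0.23 and 0.32 for Hcst and 0.16 and 0.24 for Cd247), and under TMM Hcst did not pass it in NK cells either (-0.56 and -0.28). For Hcst the mean log2 ratio of KR+ to KG+ was -0.65 in NK cells and 0.27 in CD4 T cells, a difference of -0.92. In CPM, Hcst stood at 558, 460.3 and 323 in NK cells and 469.8, 439.9 and 549 in CD4 T cells. For Cd247 the mean log2 ratio was -1.15 in NK cells and 0.20 in CD4 T cells, a difference of -1.35, with 75.3, 56.8 and 29.5 CPM in NK cells and 163, 153 and 181 in CD4 T cells. Neither difference was tested, since there was 1 KR+ library, and the UMIs per cell were higher in KR+ NK cells, as given above. No library could be tested as an outlier of its group, since no group had more than 2 libraries.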

How the results depend on the processing

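Over the 12 alternatives of each of the 7 comparisons, 632 fitted fold changes of the 9 genes kept their direction and side of the threshold. With the direction kept, 70 lost a call and 16 gained one. A further 28 changed sign, none of the 28 being called in that alternative. Among them, Sh2d1b1 for the integrins and Hcst for Havcr2 were called in the main fit and so lost that call as well. The cause of the changes was not tested. For Itga1+ against Itgam+ NK cells, the number of the 9 genes called was 7, and 4 with no low-count filter, 3 with no library block, 1 with cells thinned before gating, 4 with stricter gates, and 3 to 7 with a library left out. Of all genes, 3393 of 9466 were called in the main fit. Under the first 4 alternatives named they were 3570 of 18040, 2377 of 9466, 427 of 5887 and 1712 of 6603. For ILC-like against Eomes+ NK cells it was 5, 2 with no block and 3 to 6 with a library left out (3 without KG+ 2). For Havcr2+ against Havcr2- CD8 T cells it was 3, 1 with DESeq2, 0 with no block (edgeR, with 2 at an unadjusted p under 0.05), 5 with doublets kept, 1 with thinning and 0 to 3 with a library left out (0 without KG+ 2, with 3 at an unadjusted p under 0.05 in edgeR). For DN T against CD8 T cells it was 7 and 4 with no block. For Trdc+ against Trdc- DN T cells it was 2, 4 with no low-count filter, 1 with DESeq2, 1 with no block and 1 to 3 with a library left out (1 without KG+ 1). With no block, Cd247 lost its call in NK against CD8 T cells, in DN T against NK cells and in ILC-like cells. For the colors, those of the 9 genes past the rule went from 1 to 2 in Itgam+ NK cells with thinning or stricter gates. With stricter gates 1 of these was higher in KR+. The KR+ Itgam+ group held 37 cells with thinning and 14 with stricter gates, against 76 in the main setting. In Itga1+ NK cells they went from 2 to 1 with no cell filter, thinning, stricter gates or TMM, and in ILC-like cells from 2 to 1 with thinning or stricter gates. In CD8 T cells they went from 0 to 1 with doublets kept or no cell filter and 2 with stricter gates, and in DN T cells from 0 to 1 with thinning or stricter gates. Among all genes under stricter gates, 444 were higher and 918 lower in KR+ of 4942 in Itgam+ NK cells. In Itga1+ NK cells these counts were 259 and 757 of 11082 and in ILC-like cells 304 and 587 of 8609. In CD8 T cells they were 701 and 1156 of 13577 and in DN T cells 431 and 356 of 11088.

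The log2 fold changes that changed sign were these, with a range where a library left out in turn did it. For Itga1+ against Itgam+ NK cells, thinning gave 0.044 for Zap70 and 0.19 for Sh2d1b1, and stricter gates 0.12 and 0.28. The KR+ Itgam+ group then held 37 and 14 cells, respectively. For ILC-like cells, Hcst came to 0.036 with thinning and -0.20 to 0.10 with a library left out. For Havcr2, stricter gates gave 0.025 for Fcer1g and 0.27 for Sh2d1b1, thinning 0.0074 for Hcst, and leaving out a library -0.51 to 0.043 for Sh2d1b1, -0.022 to 0.13 for Cd247 and -0.32 to 0.053 for Syk. For DN T against CD8 T cells, Hcst came to 0.0036 with RLE, 0.0036 with DESeq2, 0.035 with no cell filter and -0.034 to 0.046 with a library left out. For Trdc, Fcer1g came to 0.0026 with doublets kept, 0.0095 with no cell filter, 0.14 with thinning and -0.087 to 0.060 with a library left out. Hcst came to 0.024 with stricter gates and -0.056 to 0.011 with a library left out, Zap70 to -0.10 with thinning, Syk to 0.15 without other-lineage UMIs and -0.12 to 0.019 with a library left out, and Fcgr3 to -0.20 with stricter gates and -0.057 to 0.56 with a library left out.

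Over all genes, the number called moved by over 1.5 times as follows. With no block it went from 3796 to 1837 for NK against CD8 T cells, from 629 to 127 for ILC-like cells, from 3494 to 53 for Havcr2, from 4577 to 1990 for DN T against CD8 T cells and from 1006 to 451 for Trdc. With thinning 427 were called for the integrins, of 5887 tested, against 3393 of 9466. It gave 224 for ILC-like cells, 893 for Havcr2 and 2415 for DN T against CD8 T cells, each also from fewer genes tested. DESeq2 called 2090 for the integrins, 2182 for Havcr2 and 438 for Trdc, and stricter gates 1712 for the integrins, of 6603 tested. With no low-count filter 1545 were called for Trdc, of 17936 tested, against 1006 of 10200. Without KG+ 2 there were 1621 for the integrins, 314 for ILC-like cells and 2278 for Havcr2, without KR+ 976 for ILC-like cells and 4363 against 2648 for DN T against NK cells, and without KG+ 1 1611 for the last. For ILC-like cells the split of higher and lower calls, 338 and 291, was 361 and 541 with no low-count filter and 85 and 42 with no block. Depth limits Syk, Fcgr3 and Sh2d1b1 in T cells most, where few UMIs lie behind each value.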

Other observations

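NK cells with neither Itgam nor Itga1, 1806, 1816 and 1531 in KG+ 1, KG+ 2 and KR+, were left out of the comparison by integrin only. They are part of the NK gate compared with CD8 T and DN T cells, and can fall in the ILC-like and Eomes+ groups. Their Tyrobp stood at 2346, 2144 and 2026 CPM and their Hcst at 578, 476 and 381, and Cd247 stood at 75.9, 58.4 and 33.9 and Syk at 25.9, 25.7 and 10.9. In each library the levels of Tyrobp, Fcer1g, Hcst, Cd247 and Syk lay between those of Itgam+ and Itga1+ NK cells, whereas Fcgr3, at 34.5, 27.2 and 24.1 CPM, lay below both. These differences were not tested, and the genes were picked out after their values were seen. Their median cell held 6048, 7878.5 and 12226 UMIs. The myeloid reference gate held 9, 34 and 34 cells, with Fcgr3 at 0, 72.5 and 551 CPM and Syk at 47.6, 111 and 148, too few cells to compare libraries. In the 151 and 79 B cells of the KG+ libraries, Zap70 stood at 0 and 6.11 CPM and Cd247 at 3.02 and 12.2, beside 178 and 214 of Syk.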
